A study of Mus musculus with 4 samples.

Results

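The genes described here are the enzymes and regulators of cholesterol and fatty acid synthesis, in wild-type mouse peritoneal macrophages. They form a list of 32 genes that was chosen by function, with earlier results of these data known. Each was found by its symbol in a table of read counts for 54532 genes. All 32 members had at least 10 reads in every library, so none was lost to a filter on low counts. The study sequenced 4 libraries, 1 for each combination of medium and inhibitor. The macrophages were kept in normal medium, which was complete RPMI medium, or in a mixture that held 30% 4T1-CM, the conditioned medium of the mouse mammary tumour line 4T1. Each medium was given with the solvent DMSO alone or with CH223191 at 10 µM, an antagonist of the aryl hydrocarbon receptor AHR, a transcription factor that binds small aromatic ligands. The methods describe peritoneal macrophages as cells drawn from BALB/c mice after thioglycollate, a broth that brings monocyte-derived macrophages into the peritoneum. The labels do not say how many mice gave a library or how long the cells were treated. There is 1 library per condition, so no pair of libraries could be tested, and every interval given below is a 95% interval of counting error that compares 2 libraries and not the conditions. In bulk RNA, fewer cells that make a transcript and less of it per cell cannot be told apart.

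Cells make cholesterol from acetyl-CoA through mevalonate, which is turned into isoprenoids, then squalene, then lanosterol, and at last cholesterol. Fatty acids also start from acetyl-CoA, and desaturases then place double bonds in them. Most of these genes are targets of the transcription factors SREBP-1 and SREBP-2, encoded by Srebf1 and Srebf2. SCAP escorts the SREBP precursors out of the endoplasmic reticulum when sterols are scarce, and INSIG proteins hold them there when sterols are plentiful. The liver X receptors LXRα and LXRβ answer to oxysterols, raise cholesterol export in macrophages, and also drive Srebf1 and Scd1.

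SREBPs act at promoters together with NF-Y, a factor that binds the CCAAT box. Promoter windows that ran from 250 bases before to 50 bases after a RefSeq start site were found for 25 of the 32 members (33 windows in all), on the build GRCm38.p6. No window was found for Sqle, Fdft1, Fdps, Stard4, Scd1, Scd2 and Fads1. The letters CCAAT, read on both strands, occurred in the windows of 20 of the 25 members (80.0%) and of 41.1% of all 27025 genes with a window. The letters TCACNCCAC, a form of the sterol regulatory element, were found for 1 of the 25 members, Hmgcs1, and for 1.44% of all genes. The letters TNGCGTG, which hold the core of the element bound by AHR, were found for 2 members, Insig1 and Acat2, against 5.84% of all genes. Such a match is a description of the letters and not evidence of binding. Promoter stretches are printed to show these matches, at the only member with the sterol regulatory element (Hmgcs1), the 3 enzymes with the lowest ratios of 4T1-CM to normal medium with CH223191 (Mvk, Pmvk and Ebp), Srebf2, and the enzyme with the AHR element (Acat2). Each stretch starts 150 bases before the RefSeq start site, runs 5′ to 3′ in the direction of the gene and stops before the first base of the gene as the files give it. Capitals mark the CCAAT box, which reads as ATTGG on the other strand, in every stretch but that of Acat2, where they mark the AHR element, and they also mark the sterol regulatory element in Hmgcs1.
Hmgcs1, chr13:119690201-119690350, plus strand: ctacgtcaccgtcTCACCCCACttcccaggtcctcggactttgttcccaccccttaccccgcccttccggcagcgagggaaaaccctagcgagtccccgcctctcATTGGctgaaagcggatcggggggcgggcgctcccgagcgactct
Mvk, chr5:114444119-114444268, plus strand: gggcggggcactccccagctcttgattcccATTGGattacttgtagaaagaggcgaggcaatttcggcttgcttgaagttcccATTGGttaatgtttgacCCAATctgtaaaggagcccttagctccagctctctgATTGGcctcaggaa
Pmvk, chr3:89454391-89454540, plus strand: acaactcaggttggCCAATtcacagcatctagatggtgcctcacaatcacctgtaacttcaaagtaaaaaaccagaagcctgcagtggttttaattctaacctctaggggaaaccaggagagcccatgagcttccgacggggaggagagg
Ebp, chrX:8193513-8193662, minus strand: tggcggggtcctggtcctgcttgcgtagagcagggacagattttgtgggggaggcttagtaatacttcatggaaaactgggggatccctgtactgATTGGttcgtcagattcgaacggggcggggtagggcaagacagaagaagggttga
Srebf2, chr15:82147119-82147180, plus strand: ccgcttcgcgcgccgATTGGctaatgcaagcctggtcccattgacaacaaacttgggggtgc
Acat2, chr17:12960748-12960875, minus strand: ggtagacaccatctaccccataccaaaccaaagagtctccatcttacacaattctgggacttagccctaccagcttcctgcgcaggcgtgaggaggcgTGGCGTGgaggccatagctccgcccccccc
The sterol regulatory element of Hmgcs1 began 137 bases before the start site, and a CCAAT box lay between it and the start. Mvk held 5 CCAAT boxes in its window, 4 of them in the stretch shown, more than any other member. Acaca, Acat2, Elovl6, Fads2 and Scap held none.

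**Figure D1:**
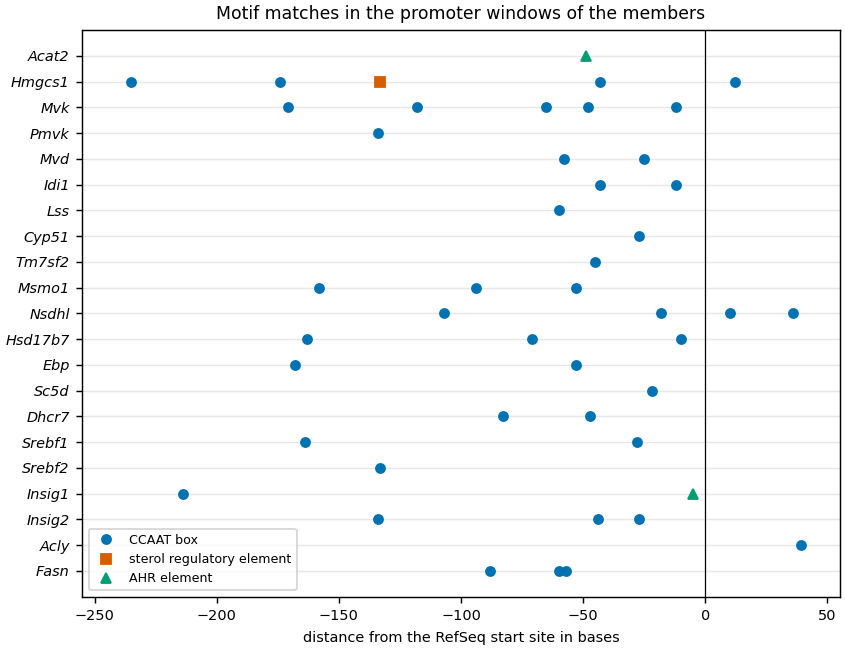
Positions of motif matches (CCAAT box, sterol regulatory element, AHR element) around the RefSeq start site of the members with a window and a match, in bases, with all windows of a gene drawn on 1 row. CCAAT boxes are on 20 rows, the sterol regulatory element only on that of Hmgcs1, and the AHR element on those of Acat2 and Insig1.

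The libraries held between 15535405 and 17557127 reads, and 13715 genes had at least 10 reads in at least 1 of them. Counts were scaled by the TMM method to CPM, which are counts relative to the size of the library, and 3 reads, taken as the floor of detection, came to at most 0.189 CPM. The macrophage markers Adgre1, Csf1r, Cd68, Lyz2 and Itgam were all detected, and together they held 13970 CPM (normal medium/DMSO), 18180 CPM (normal medium/CH223191), 37370 CPM (4T1-CM/DMSO) and 39900 CPM (4T1-CM/CH223191), and libraries are named in this form below. The 5 epithelial tumour cell markers summed to at most 1.36 CPM, the 4 mesothelial to at most 1.32, the 4 B cell markers to at most 1.17, and the 5 adipocyte markers to at most 1 read. The 5 fibroblast markers, with Col1a2 the most abundant, held 60.9, 27.3, 140 and 119 CPM in the same order of libraries. Among them Col1a1, Col1a2 and Col3a1 were higher with 4T1-CM. Pdgfra had 5.71, 3.08, 4.75 and 4.31 CPM, and Lum had at most 3 reads. Cyp1b1, a direct AHR target used here as a check of the inhibitor, had 65 reads in normal medium/DMSO, 19 with CH223191, 361 in 4T1-CM/DMSO and 171 with CH223191. Its log2 ratio of CH223191 to DMSO was -1.75 (-2.59 to -1.01) for normal medium and -0.97 (-1.24 to -0.70) for 4T1-CM. Nqo1, a further AHR target, had 28, 18, 70 and 33 reads in this order, and Ahr itself had 30, 21, 150 and 167.

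On a scale of CPM per kilobase of gene length, which allows levels of different genes to be compared, the members spanned from 0.852 (Fdps, mean of the 4 libraries) to 230.0 (Scd2). Scd2, a stearoyl-CoA desaturase, was followed by Acly at 47.5, Insig1 at 45.1, Fads1 at 43.4 and Mvd at 42.7. Acly makes cytosolic acetyl-CoA from citrate, the common start of both pathways. The lowest members after Fdps and Elovl6 were Tm7sf2 at 3.51 and Acaca at 3.61. Neighbours in this order are often closer than the spread over libraries: Acly ran from 42.5 to 50.7, Insig1 from 41.1 to 50.4 and Fads1 from 36.8 to 54.0. Scd2 alone held 22.2% of the members' reads in normal medium/DMSO, 25.4% with CH223191, 38.5% in 4T1-CM/DMSO and 42.5% with CH223191. Across the 4 libraries the highest level of a member was under 1.5 times its lowest for 21 of the 32 members, and over 2 times for 5. The same counts were not made over all genes, so they do not set the list apart.

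**Figure D2:**
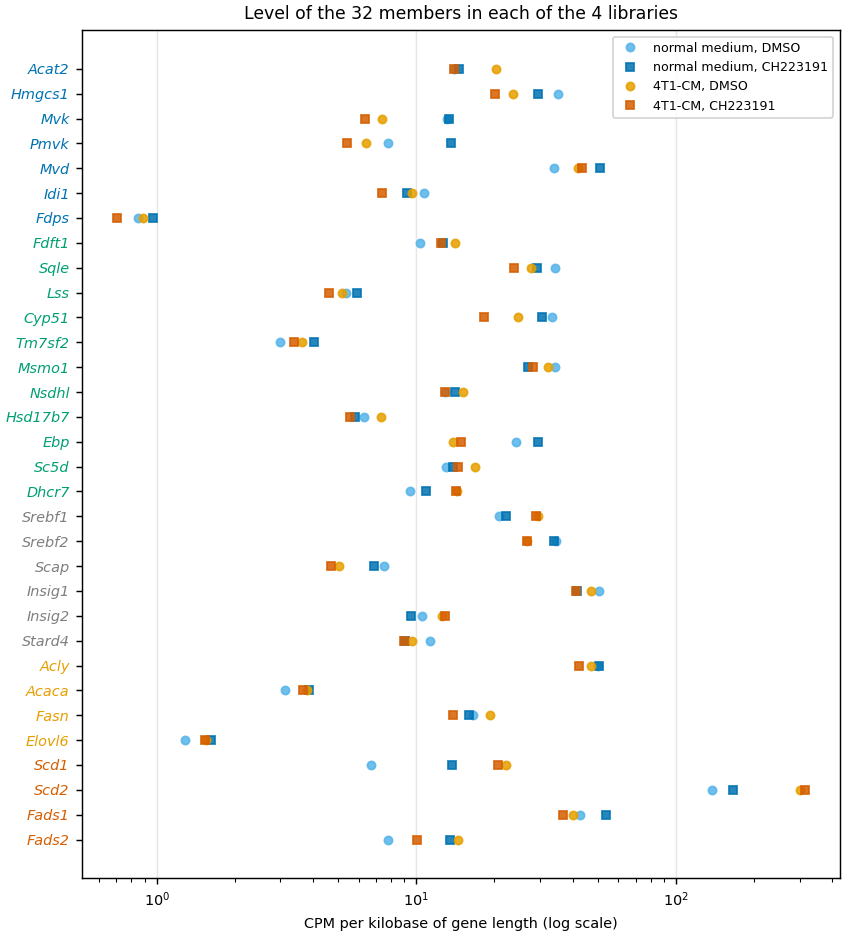
Level of the 32 members in each library, in CPM per kilobase of gene length on a log axis, with circles for DMSO, squares for CH223191, blue for normal medium and orange for 4T1-CM; names are coloured by role, from mevalonate enzymes at the top to desaturases at the bottom. Scd2 lies apart at the right, between 138 and 315, and Fdps at the left, under 1.

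With DMSO, the stearoyl-CoA desaturases Scd1 and Scd2 were the members at least 2-fold higher in 4T1-CM, while the rest of the list split in both directions. Scd1 was 3.31-fold and Scd2 2.18-fold higher in 4T1-CM. No member was 2-fold lower. Of all 13715 genes, 12.2% rose by 2-fold or more and 6.11% dropped by as much, so 2 of 32 members is a smaller share than among all genes. The median log2 ratio of the members was 0.14, with 17 above 0 and 15 below, and the median of all genes was 0.01. Without Scd1 and Scd2 the median was 0.00. With CH223191, the same change of medium left no member 2-fold higher and 2 members, Pmvk and Mvk, 2-fold lower, beside 12.0% of all genes higher and 7.86% lower. The median of the members was -0.22, with 7 above 0 and 25 below, against a median of 0.02 for all genes. The split was 10 above 0 and 22 below when 10 reads were required in every library, and 12 and 20 with a gene length trend removed, an alternative chosen after seeing the data. The 2 comparisons share no library. Over both, 6 members were higher in each, 14 were lower in each, and 11 were higher with DMSO and lower with CH223191. The same joint counts were not made over all genes, of which 50.6% were higher with DMSO and 51.0% with CH223191.

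CH223191 itself gave different patterns in the 2 media. In normal medium 20 members had a log2 ratio above 0 and 12 below, with a median of 0.09, and 1 member, Scd1, was 2-fold higher (2.04-fold), beside 4.84% of all genes higher and 3.31% lower. In 4T1-CM 28 of the 32 members lay below 0, where 49.2% of all genes did, and the median was -0.17 against 0.00 for all genes. The shifts were small: none was 2-fold, beside 2.75% of all genes higher and 2.66% lower, and they ran from -0.54 (Acat2) to 0.10 (Ebp). The counting interval lay wholly below 0 for 17 members and above 0 for 1, Scd2. All 18 belong to the 30 members whose mean was 10 CPM or more, and of the 8324 genes above that mean 16.7% had an interval below 0, 16.4% above it, and 49.1% a ratio below 0. In normal medium the interval lay below 0 for 7 of these 30 members and above it for 12, beside 27.5% and 26.7% of the 8324 genes. Among the same 8324 genes, the fifth percentile of the ratio in 4T1-CM was -0.27, and 6 of the 30 members in that range lay under it (Acat2, Fads2, Fasn, Cyp51, Hsd17b7 and Idi1), where 5.01% of these genes did, and no member lay above the 95th percentile. In normal medium 4 of the 30 (Scd1, Pmvk, Fads2 and Mvd) lay above the 95th percentile of 0.54, where again 5.01% of these genes lay, and none below the fifth. Fads2 is in both groups, in opposite directions. Pmvk, Fads2 and Mvd are also the shortest members by deposited gene length, and ratios in normal medium moved with length, as described below. The library of 4T1-CM/CH223191 was the lowest of the 4 for 16 members, normal medium/DMSO for 13, normal medium/CH223191 for 2 and 4T1-CM/DMSO for 1. For the 30 members in the range above, these counts were 15, 12, 2 and 1, while among the 8324 genes each library was the lowest for a share between 22.2% (normal medium/DMSO) and 28.3% (normal medium/CH223191), and 4T1-CM/CH223191 for 24.5%.

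**Figure D3:**
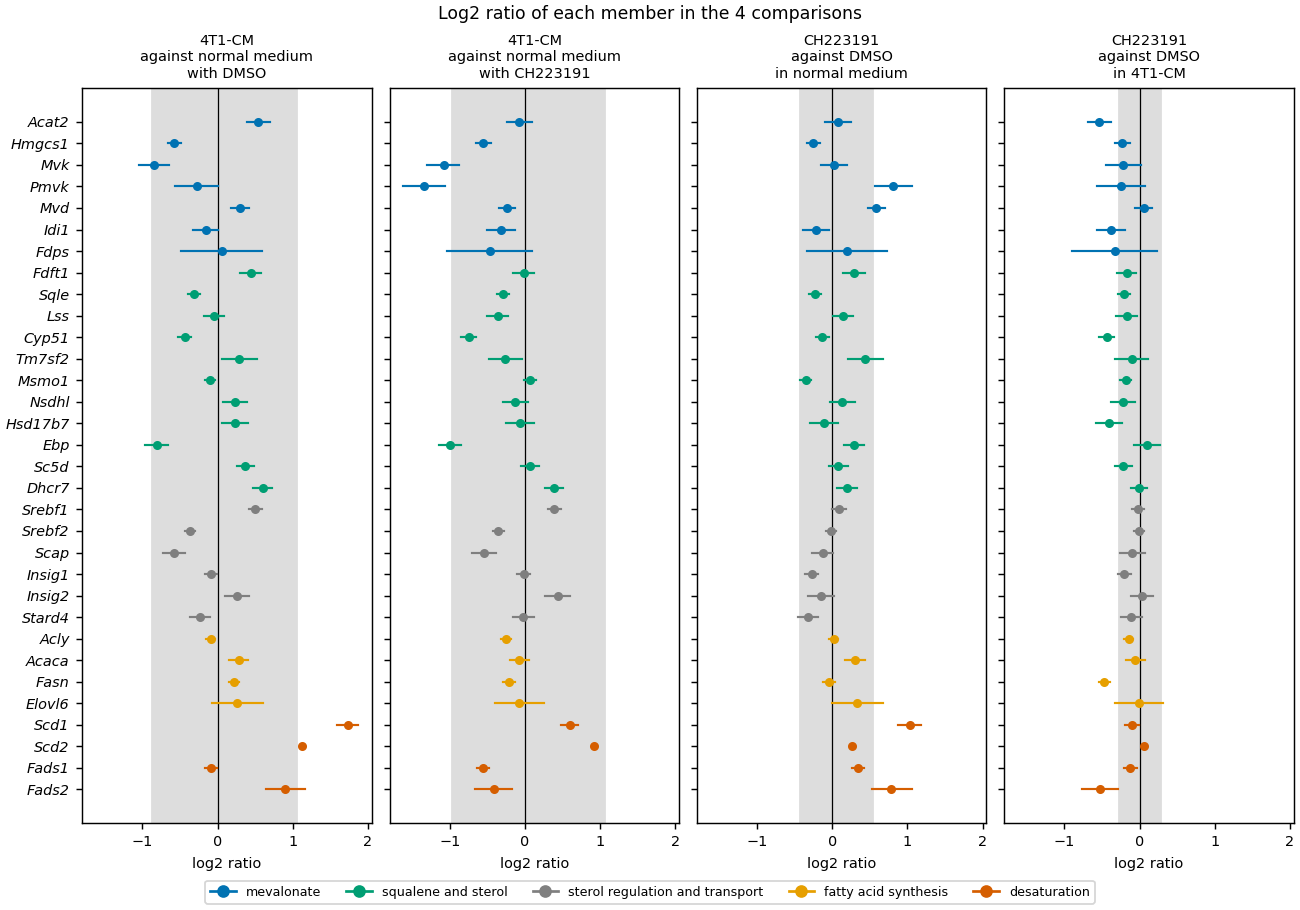
Log2 ratio of each member in the 4 comparisons, with points coloured by role, bars for the 95% counting interval, and a grey band from the 5th to the 95th percentile of the 8324 genes whose mean was 10 CPM or more. Scd1 and Scd2 lie beyond the band under 4T1-CM/DMSO, Mvk, Pmvk and Ebp under 4T1-CM/CH223191, and in the last panel 28 of 32 points lie left of 0.

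The only model of both factors that the 4 libraries can test is an additive fit, in which medium and inhibitor each have 1 effect. It was made with edgeR (quasi-likelihood, 1 residual degree of freedom), and the departure of the libraries from additivity serves as the spread. For the medium, 4 members were higher in 4T1-CM at an adjusted p under 0.05 (Scd2, Scd1, Dhcr7 and Srebf1) and 7 were lower (Ebp, Mvk, Hmgcs1, Scap, Cyp51, Pmvk and Srebf2), beside 16.4% of all genes higher and 16.2% lower. The Wald test of DESeq2 called 1 of the 4 (Scd2) and 5 of the 7 (Hmgcs1, Scap, Cyp51, Mvk and Ebp), and Srebf2 also lost the call in edgeR with size factors of DESeq2 and with 10 reads required in every library. In the last of these Insig2 passed as higher. For the inhibitor no member passed with edgeR, beside 0.0729% of all genes higher and 0.00729% lower. At an unadjusted p under 0.05 there was 1 member, Idi1 (fitted log2 difference -0.30), and that Wald test gave 0 members both adjusted and unadjusted. The fit cannot show an effect of CH223191 that differs between media, since it takes such a difference as spread.

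The mevalonate enzymes, which lead from acetyl-CoA to farnesyl diphosphate, had a median log2 ratio for 4T1-CM of -0.16 with DMSO and -0.46 with CH223191, and Hmgcs1, Mvk and Pmvk fell by the additive edgeR fit. Hmgcs1, the HMG-CoA synthase that carries the sterol regulatory element shown above, had 2566 reads in normal medium/DMSO, 2147 with CH223191, 1891 in 4T1-CM/DMSO and 1494 with CH223191. Each library with 4T1-CM was lower than both of normal medium, and the log2 ratio was -0.57 (-0.66 to -0.49) in DMSO and -0.55 (-0.65 to -0.46) in CH223191. Its adjusted p for the medium was 0.00565 with edgeR. Mvk, mevalonate kinase, had 562, 571, 344 and 275 reads in the same order of libraries. Its log2 ratio for 4T1-CM was -0.84 (-1.04 to -0.65) in DMSO and -1.08 (-1.30 to -0.88) in CH223191 (edgeR adjusted p = 0.000567). The next kinase of the pathway, Pmvk, had 212, 372, 192 and 150 reads. The library of normal medium/CH223191 stood above the other 3 here, and the ratio for 4T1-CM was -0.28 (-0.57 to 0.01) with DMSO but -1.34 (-1.62 to -1.06) with CH223191.

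Mvd, the decarboxylase that gives isopentenyl diphosphate, had 1008, 1511, 1364 and 1313 reads, so normal medium/DMSO was the lowest library. Its ratio for CH223191 was 0.59 (0.47 to 0.70) for normal medium and 0.05 (-0.06 to 0.16) for 4T1-CM. Idi1, the isomerase of the next step, had 598, 512, 588 and 419 reads, and its ratio for CH223191 was -0.22 (-0.39 to -0.05) for normal medium and -0.38 (-0.56 to -0.20) for 4T1-CM. The members whose interval for CH223191 lay below 0 in both media were Idi1, Hmgcs1, Sqle, Cyp51, Msmo1 and Insig1, which is 6 of the 30 at 10 CPM or more, where 5.65% of such genes met this. Acat2, the cytosolic thiolase that makes acetoacetyl-CoA, had 564, 593, 901 and 576 reads. The library of 4T1-CM/DMSO was alone in being high, with a ratio for 4T1-CM of 0.54 (0.39 to 0.69) in DMSO and -0.07 (-0.24 to 0.10) in CH223191. Fdps, farnesyl diphosphate synthase, had only between 48 and 65 reads, and its intervals spanned 0 in all 4 comparisons.

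Some of these counts can be shared with other genes. By 50-base words, 39.1% of the Acat2 transcripts also occur in Acat3 or Tcp1, 26.2% of Fdps in 8 other genes, among them Gm43738 that overlaps 26.7% of its exon bases on the same strand, and 25.3% of Idi1 in 5 others. Fdft1 (26.5%, overlapped by the abundant Ctsb on the opposite strand) and Acaca (30.4%) were the other members above 20%, and 24 members were under 5%. How the counting treated such reads was not given, so these 5 members are uncertain.

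Among the 11 enzymes from squalene to cholesterol, Cyp51 and Ebp fell and Dhcr7 rose with 4T1-CM by the additive edgeR fit, and the other 8 did not pass it. Cyp51, lanosterol 14α-demethylase, had 2348, 2139, 1904 and 1302 reads. It was lower in each library with 4T1-CM, with a log2 ratio of -0.44 (-0.53 to -0.35) in DMSO and -0.75 (-0.85 to -0.65) in CH223191 (edgeR adjusted p = 0.00635). Ebp, the sterol isomerase, had 890, 1084, 558 and 556 reads, with ratios of -0.81 (-0.96 to -0.65) and -0.99 (-1.14 to -0.84), and an edgeR adjusted p of 0.000407. Dhcr7, the reductase of the last step on the 7-dehydrocholesterol branch, went the other way with 879, 1006, 1460 and 1345 reads. Its ratios were 0.60 (0.47 to 0.72) in DMSO and 0.39 (0.27 to 0.51) in CH223191 (edgeR adjusted p = 0.0126). Both libraries of 4T1-CM lay above both of normal medium for Dhcr7, and below both for Ebp.

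Sqle, squalene epoxidase and a rate-limiting step, had 3035, 2580, 2676 and 2148 reads. Its ratios were -0.32 (-0.39 to -0.24) and -0.29 (-0.38 to -0.21) for 4T1-CM, and its adjusted p was 0.083 with edgeR. Msmo1, the C4-methyl oxidase, had 3356, 2620, 3442 and 2805 reads. It separated the libraries by inhibitor rather than by medium, with a ratio for CH223191 of -0.35 (-0.43 to -0.28) for normal medium and -0.19 (-0.26 to -0.12) for 4T1-CM, and an unadjusted p of 0.0578 in the additive edgeR fit (adjusted p = 0.785).

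For 5 of the remaining 6 enzymes, the ratio of 4T1-CM to normal medium was above 0 with DMSO and closer to 0 or below it with CH223191. The share of all genes that met this was not counted, so the number does not set these enzymes apart. Sc5d, the sterol C5-desaturase, had 1013, 1070, 1436 and 1147 reads and a ratio for 4T1-CM of 0.37 (0.25 to 0.49) in DMSO and 0.07 (-0.05 to 0.19) in CH223191. Fdft1, squalene synthase, had 699, 850, 1042 and 857 reads, Nsdhl, a C4-decarboxylating dehydrogenase, 584, 640, 753 and 599, and Hsd17b7, the 3-ketosterol reductase, 510, 471, 656 and 459. For these 3 the ratio for 4T1-CM was 0.44, 0.23 and 0.23 with DMSO, and -0.02, -0.13 and -0.07 with CH223191, where all 3 intervals spanned 0. Tm7sf2, a sterol C14-reductase, had 266, 360, 356 and 307 reads, with ratios of 0.28 (0.05 to 0.52) and -0.26 (-0.48 to -0.04). Lss, lanosterol synthase, was the other one, with 924, 1017, 980 and 807 reads and ratios of -0.05 (-0.18 to 0.08) and -0.36 (-0.50 to -0.23). Of the 11 enzymes, 10 had a ratio of CH223191 to DMSO below 0 in 4T1-CM, and for 8 the interval lay below 0 as well. Among the 8324 genes whose mean was 10 CPM or more, these shares were 49.1% and 16.7%.

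Among the regulators, Srebf1 rose and Srebf2 and Scap fell with 4T1-CM by the additive edgeR fit, while the libraries of Insig1 and Stard4 differed more by inhibitor. Of the regulators, the Wald test of DESeq2 called Scap alone. Srebf1 had 1870, 1987, 2902 and 2656 reads and was higher with 4T1-CM by 0.50 (0.41 to 0.58) in DMSO and 0.39 (0.30 to 0.47) in CH223191 (edgeR adjusted p = 0.0199). Srebf2 had 3938, 3885, 3363 and 3106 reads and was lower with 4T1-CM, at ratios of -0.36 (-0.43 to -0.30) and -0.35 (-0.42 to -0.28), with an edgeR adjusted p of 0.0488. Per kilobase, the ratio of Srebf2 to Srebf1 was 1.65 and 1.53 in the libraries of normal medium and 0.909 and 0.917 in those of 4T1-CM. The counts are per gene, so Srebf1a and Srebf1c transcripts are not separated.

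Scap, the escort of both SREBPs, had 891, 814, 655 and 569 reads, with ratios for 4T1-CM of -0.58 (-0.73 to -0.43) in DMSO and -0.55 (-0.70 to -0.39) in CH223191 (edgeR adjusted p = 0.00608). Srebf2 and Scap thus lay lower and Srebf1 higher in each library with 4T1-CM than in either of normal medium. Insig2 had 585, 527, 767 and 727 reads and ratios of 0.26 (0.10 to 0.41) and 0.43 (0.27 to 0.60), with an edgeR adjusted p of 0.0635 (it passed when 10 reads were required in every library). Insig1, itself an SREBP target, had 2485, 2047, 2558 and 2063 reads and separated by inhibitor, with a ratio for CH223191 of -0.28 (-0.36 to -0.19) for normal medium and -0.20 (-0.29 to -0.12) for 4T1-CM. Stard4, a cytosolic sterol carrier, had 1008, 805, 942 and 810 reads, and its ratio for CH223191 was -0.32 (-0.46 to -0.19) for normal medium and -0.11 (-0.25 to 0.03) for 4T1-CM.

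Fatty acid synthesis itself moved little with the medium. Acly had 4203, 4251, 4336 and 3638 reads. Fasn, the fatty acid synthase, had 2877, 2789, 3672 and 2459, so that 4T1-CM/DMSO was the highest library and 4T1-CM/CH223191 the lowest. The ratio of Fasn for 4T1-CM was 0.22 (0.15 to 0.29) in DMSO and -0.21 (-0.29 to -0.13) in CH223191, and that for CH223191 was -0.04 (-0.12 to 0.03) for normal medium and -0.47 (-0.55 to -0.40) for 4T1-CM. Acaca, the acetyl-CoA carboxylase that commits carbon to this branch, had 851, 1045, 1134 and 1013 reads, with normal medium and DMSO lowest. Elovl6, the elongase that makes stearate from palmitate, had between 132 and 174 reads, and its interval spanned 0 in each comparison. None of these 4 genes passed the additive edgeR fit for the medium (adjusted p between 0.324 for Acly and 0.99 for Fasn).

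Scd1 and Scd2 were the members with the highest ratios for 4T1-CM in DMSO, and Scd2 and Scd1 also in CH223191. Scd2 had 11978 reads in normal medium/DMSO, 14383 with CH223191, 28725 in 4T1-CM/DMSO and 27867 with CH223191. Both libraries of 4T1-CM lay far above both of normal medium. The log2 ratio for 4T1-CM was 1.13 (1.10 to 1.16) in DMSO and 0.92 (0.89 to 0.95) in CH223191, and the edgeR adjusted p was 0.000111. Scd1, its paralog and an LXR and SREBP-1 target, had 517, 1054, 1883 and 1627 reads. Normal medium with DMSO was the lowest, and Scd1 was 2.04-fold higher with CH223191 in normal medium, which dropped under 2-fold when libraries were scaled by their total counts. The ratio of Scd1 for 4T1-CM was therefore 1.73 (1.59 to 1.87) in DMSO and 0.59 (0.48 to 0.71) in CH223191, with an edgeR adjusted p of 0.00238. Per kilobase, Scd2 stood 20.5 times above Scd1 in normal medium/DMSO, and 12.1, 13.5 and 15.2 times above it in the other 3 libraries. Scd1 and Scd2 shared 4.56% and 3.97% of their 50-base words with other genes.

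Fads1 and Fads2 encode the Δ5 and Δ6 desaturases of polyunsaturated fatty acids and lie side by side on chromosome 19. Fads2 had 187, 322, 382 and 246 reads. Normal medium with DMSO was the lowest and 4T1-CM/DMSO the highest, so its ratio for 4T1-CM was 0.89 (0.64 to 1.16) in DMSO and -0.42 (-0.66 to -0.17) in CH223191. Its ratio for CH223191 was 0.79 (0.52 to 1.05) for normal medium and -0.53 (-0.76 to -0.29) for 4T1-CM. Fads1 had 2344, 2968, 2420 and 2063 reads, with normal medium and CH223191 highest, and ratios for 4T1-CM of -0.09 (-0.17 to -0.01) in DMSO and -0.56 (-0.64 to -0.47) in CH223191. Neither passed the additive edgeR fit for the medium (adjusted p = 0.523 for Fads2 and 0.11 for Fads1).

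Scd1 and Scd2 together rose from 784 and 971 CPM in the 2 libraries of normal medium to 1750 and 1817 CPM in 4T1-CM. The other 30 members summed to 2602, 2593, 2510 and 2225 CPM in the same order. So the gain of the whole list with 4T1-CM, from 3386 to 4260 CPM with DMSO and from 3565 to 4042 with CH223191, came from these 2 genes, and the library of 4T1-CM/CH223191 held the least of the rest.

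The response to 4T1-CM/CH223191 was set against that with DMSO, gene by gene, as the difference of the 2 log2 ratios. This difference uses all 4 libraries and could not be tested. It was below 0 for 24 of the 32 members, where 50.6% of all genes lay below 0. The median was -0.30 against -0.01 for all genes. The counting interval of the difference lay below 0 for 18 members and above 0 for 2, Msmo1 and Stard4. Of the 8324 genes whose mean was 10 CPM or more, 22.5% had it below 0 and 23.6% above. The difference reached -1 for Fads2 (-1.31, -1.66 to -0.96), Scd1 (-1.13, -1.31 to -0.95) and Pmvk (-1.06, -1.45 to -0.67), beside 6.26% of all genes at or below -1 and 4.94% at or above 1. For each of these 3 genes the library of normal medium/CH223191 stood above that of normal medium/DMSO, by 1.72-fold, 2.04-fold and 1.76-fold. By role, all 4 desaturases, all 4 genes of fatty acid synthesis, 6 of 7 mevalonate enzymes and 9 of 11 enzymes from squalene to cholesterol had a difference below 0, against 1 of the 6 regulators.

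**Figure D4:**
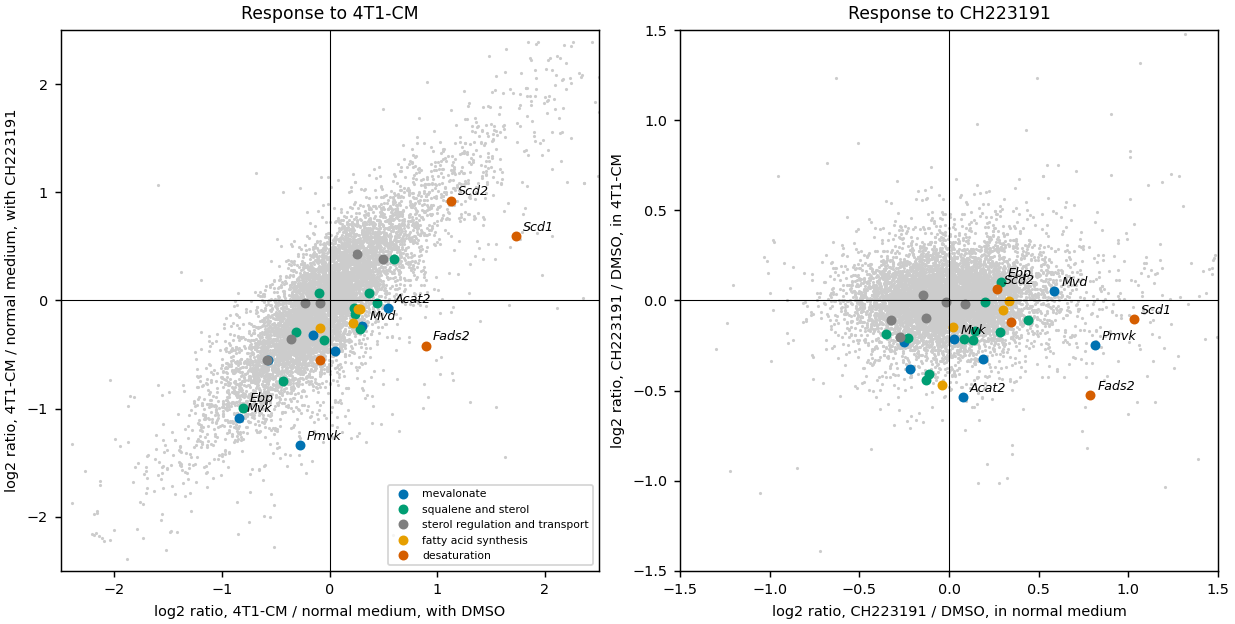
Left, log2 ratio of 4T1-CM to normal medium/CH223191 against that with DMSO; right, log2 ratio of CH223191 to DMSO in 4T1-CM against that in normal medium; coloured points are the 32 members by role and grey points the genes whose mean was 10 CPM or more (genes outside the axes are not drawn). Fads2, Pmvk and Scd1 lie lowest against the cloud on the left, and on the right 28 of 32 members lie below 0 on the vertical axis.

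The ratios of 3 of the 4 comparisons also moved with gene length. For genes whose mean was 10 CPM or more, the median log2 ratio of CH223191 to DMSO in normal medium was 0.41 for the 240 genes under 1000 bases, 0.16 from 1000 to 2000 bases, 0.05 from 2000 to 4000, -0.04 from 4000 to 8000 and -0.09 above 8000 bases. For 4T1-CM to normal medium in CH223191 the same classes had medians of -0.56, -0.39, -0.18, 0.03 and 0.22, and in DMSO -0.17, -0.21, -0.10, -0.03 and 0.09. For CH223191 to DMSO in 4T1-CM they lay between -0.01 and 0.03. Pmvk, Mvd and Fads2 are the 3 members under 2000 bases, and they had the highest ratios for CH223191 in normal medium after Scd1. With that length trend taken out, their ratios there were 0.67, 0.46 and 0.61, that of Scd1 was 1.05, and the ratios of Mvk and Pmvk for 4T1-CM with CH223191 were -0.86 and -0.97, so that no member was 2-fold lower. The count of 28 members below 0 for CH223191 in 4T1-CM was the same. What part length has in the single ratios was not tested further.

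**Figure D5:**
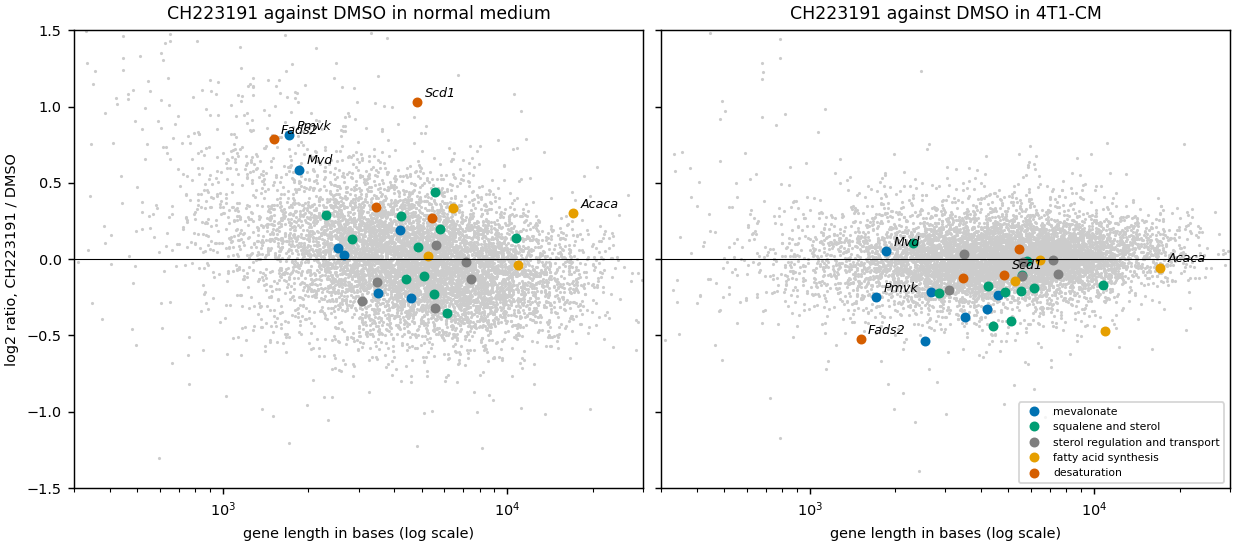
Log2 ratio of CH223191 to DMSO against gene length in bases (log axis), in normal medium (left) and in 4T1-CM (right), with members coloured by role over the genes whose mean was 10 CPM or more, in grey. On the left the cloud falls from short to long genes and Fads2, Pmvk and Mvd lie at its short end; on the right the cloud is level.

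Of 10 genes linked to LXR and cholesterol export, 3 rose by 2-fold or more with 4T1-CM in DMSO, beside 12.2% of all genes, and none dropped by as much. In CH223191 the count was also 3, beside 12.0% of all genes, and 1 dropped by as much, beside 7.86%. The same 3 genes, Abca1, Mylip and Ch25h, rose in both comparisons, but Ch25h had at most 1 read in normal medium. How many of all genes rose by 2-fold in both was not counted, so the joint count has no background. The median ratio of the list was 0.13 in DMSO and -0.06 in CH223191. Abca1, the exporter that loads cholesterol on apolipoprotein A-I, had 5825, 6707, 40102 and 43783 reads, a ratio of 2.65 (2.61 to 2.69) in DMSO and 2.68 (2.64 to 2.71) in CH223191. Mylip, a ubiquitin ligase induced by LXR, had 371, 539, 1115 and 1344 reads, and ratios of 1.45 (1.28 to 1.63) and 1.29 (1.14 to 1.43). Both were also higher with CH223191 in each medium, by 0.21 and 0.23 for Abca1 and by 0.54 and 0.38 for Mylip. Members of the same list also fell. Nr1h3, which encodes LXRα, had 657, 1023, 438 and 355 reads, ratios of -0.72 (-0.90 to -0.54) and -1.56 (-1.74 to -1.38), and an edgeR adjusted p of 0.00094. Apoe, a lipoprotein component that macrophages secrete, had ratios of -0.75 and -0.73 and an edgeR adjusted p of 0.000406. Abcg1, a further cholesterol exporter, had ratios of 0.07 and -0.29, and Soat1, which esterifies cholesterol, -0.21 and -0.13, and these did not pass the edgeR fit. These last 4 were named after their values were seen. Ch25h, which makes 25-hydroxycholesterol, had 0 and 1 reads in normal medium and 19 and 18 in 4T1-CM. The sums of the macrophage and of the fibroblast markers given above moved with the medium as well, and with CH223191 in normal medium. In the fibroblast list the rise with 4T1-CM lay in the collagen genes. Pdgfra was lower with 4T1-CM in DMSO and higher in CH223191, and Lum was near the floor. The part of these markers in the ratios of the members was not tested.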

How the data were processed

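Total RNA of peritoneal macrophages was sequenced in 4 libraries, 1 per condition. The table deposited by the authors holds raw counts, 1 whole number for each gene and library. The submitters' processing notes name HISAT2 2.0.5 and DESeq2. The counting program for these libraries, the strand setting and the build are not given in the sources used here, but the coordinates of 27 of the 32 members equal those of GENCODE M21 (GRCm38). Those of Tm7sf2, Scd1, Scd2, Fads1 and Fads2 do not. The members and gene lists were chosen with earlier results of these data known. Genes that reached 10 reads in any library were kept (13715), libraries were scaled by TMM (edgeR 4.0.16, R 4.3.3), and log2 ratios used a prior count of 0.5. A gene was called changed at 2-fold. Intervals are exact Clopper-Pearson 95% intervals of the split of reads between 2 libraries and cover counting error only. The additive quasi-likelihood fit of edgeR (medium and inhibitor, Benjamini-Hochberg over all genes kept) is the main test. The Wald test of DESeq2 took the same additive design. In both, the departure from additivity stands for the spread between cultures, which was not measured. Scripts used Python 3.11.15, numpy 2.4.6, pandas 2.3.3, scipy 1.17.1 and matplotlib 3.10.9, and were tested on simulated data. Alternatives were size factors and the Wald test of DESeq2 1.42.0, total counts, other filters, a prior count of 5, TMM over protein-coding genes, and removal of a gene length trend. The text names all members, Ahr, Cyp1b1 and Nqo1, and of a list of genes linked to LXR those that passed 2-fold in 1 direction in both comparisons of a factor. Nr1h3, Apoe, Abcg1 and Soat1 of that list did not meet this rule and were named after their values were seen. A further list of SREBP-related genes is not reported here. Promoter sequences are those of RefSeq on GRCm38.p6. Near-identical copies were counted as shared 50-base words of the transcripts.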

Additional observations from a re-analysis of the deposited data

Results flagged for a closer look

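For 8 members, the log2 ratio pointed in opposite directions in the 2 comparisons of a factor, with both counting intervals away from 0. The share of all genes that met this was not counted, so the number does not set the list apart. Intervals away from 0 were common among the 8324 genes whose mean was 10 CPM or more. For CH223191 they lay below 0 for 27.5% and above it for 26.7% in normal medium, and for 16.7% and 16.4% in 4T1-CM. These differences between libraries were not tested, since there is 1 library per condition. For the medium (4T1-CM to normal), in DMSO and then in CH223191, the ratios were 0.30 and -0.23 for Mvd, 0.28 and -0.26 for Tm7sf2, 0.22 and -0.21 for Fasn, and 0.89 and -0.42 for Fads2. For CH223191 against DMSO, in normal medium and then in 4T1-CM, they were 0.28 and -0.17 for Fdft1, 0.14 and -0.17 for Lss, 1.03 and -0.10 for Scd1, 0.34 and -0.12 for Fads1, and 0.79 and -0.53 for Fads2.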

How the results depend on the processing

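Of 96 values recomputed under other settings, 93 kept their direction and, for counts of members, stayed within 1.5 times the value given in the report. With total counts as the scale, 0 members were 2-fold higher with CH223191 in normal medium (Scd1 fell just under the limit). With the gene length trend removed, an alternative added after seeing the data, 0 members were 2-fold lower in 4T1-CM with CH223191. With DMSO 3 were 2-fold higher, since Fads2 (1.12) joined Scd1 and Scd2. That value of Fads2 rests on its deposited length of 1508 bases, which is uncertain. With the Wald test of DESeq2, 1 member (Scd2) was higher in 4T1-CM, and 5 were lower, in place of 4 and 7 with edgeR. The cause of the last difference was not tested. The members above 0 for 4T1-CM with CH223191 numbered 7, but 10 with 10 reads required in every library and 12 with the length trend removed. The members below 0 for CH223191 in 4T1-CM were 28 under every scaling, filter and prior count tried. No paired analysis was possible because each condition has 1 library, and none could be left out for the same reason. Depth limits Fdps most, with 48 to 65 reads.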
